A study of Mus musculus with 2 samples.

Results

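Keratinocyte-like cells of the mouse tail were described here at the level of single cells. They were selected on their own molecule counts, from 1 library of Sox1-GFP+ tail cells, so the keratin and collagen values given for them describe the choice. A kept cell was a member if it carried 2 or more molecules of Krt5, Krt14, Krt1 and Krt10 in sum and fewer than 10 molecules of the fibrillar collagens Col1a1, Col1a2 and Col3a1. The rule took 91 of 1964 kept tail cells (4.63%, exact 95% interval 3.75 to 5.66). All intervals below cover counting error only, since 1 library gives no replicate, and no test was run.

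The mice carried GFP knocked into the Sox1 locus, and the tails came from the first days after birth, per the study's methods. Tissue was dissociated with trypsin, GFP+ cells were sorted, and the RNA molecules of single cells were captured on the BD Rhapsody system. The only other group was the same sort from adult brain, also 1 library, in which the rule took 2 of 7988 kept cells. How many animals were pooled per library is not given in the sources used here. The reporter marks cells in which Sox1, a gene of the neural plate and of neural stem cells (NSCs), is active, so epidermal cells are not its intended target.

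Keratinocytes form the epidermis. Those of the basal layer divide, sit on a basement membrane through hemidesmosomes and make the keratin pair Krt5 and Krt14. As they move up they leave the cycle and switch to the suprabasal pair Krt1 and Krt10, and desmosomes hold neighbouring cells together in all living layers. Hair follicles grow down from the same epithelium and use further keratins such as Krt15 and Krt17.

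Krt5 (GRCm38, chromosome 15, 101707070 to 101712898, minus strand) and Krt10 (chromosome 11, 99385254 to 99389364, minus strand) stand for the basal and the suprabasal pair. Their promoters are shown because the cells were split by these genes below. Each sequence is from RefSeq on GRCm38.p6, is written 5′ to 3′ on the gene's own strand, and runs from 250 bases before to 50 after the start site. Both strands were searched for 5 motifs, whose matches are in capitals. These were the TATA box as TATAAA, the CCAAT box by those letters, the GC box as GGGCGG, the AP-1 motif as TGANTCA and the AP-2 motif as GCCNNNGGC.
Krt5, chr15:101712856-101713155: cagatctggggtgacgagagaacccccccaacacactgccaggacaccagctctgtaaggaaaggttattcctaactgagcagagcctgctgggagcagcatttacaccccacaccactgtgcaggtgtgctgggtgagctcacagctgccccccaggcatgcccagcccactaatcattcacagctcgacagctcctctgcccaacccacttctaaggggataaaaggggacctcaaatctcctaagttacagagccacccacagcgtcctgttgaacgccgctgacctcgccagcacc
Krt10, chr11:99389315-99389614: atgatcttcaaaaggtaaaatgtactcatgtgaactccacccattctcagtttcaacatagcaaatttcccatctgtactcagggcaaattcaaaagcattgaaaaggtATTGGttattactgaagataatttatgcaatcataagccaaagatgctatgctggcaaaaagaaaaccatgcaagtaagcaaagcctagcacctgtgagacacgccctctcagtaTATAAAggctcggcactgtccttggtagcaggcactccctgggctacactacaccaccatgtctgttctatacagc
The Krt10 window holds TATAAA 26 bases before the start site and CCAAT, on the opposite strand, 141 bases before it. Of 32851 RefSeq promoter windows of this length, 13.6% hold the TATA box, 37.4% the CCAAT box, 35.7% the GC box, 7.81% the AP-1 motif and 16.6% the AP-2 motif. The Krt5 window holds none of the 5 motifs, and neither result says anything about a factor.

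Kept tail cells were most often without any of the 4 keratins, and more cells lay just below the limit of the rule than just above it. Of the kept cells, 1776 had no molecule of the 4 keratins and 96 had 1, which was Krt10 in 83 of them. Just inside the limit, 8 members had 2 or 3 molecules, no cell had 4 or 5, and every other member had 6 or more. The median member had 20 molecules and the highest 584. The collagen limit left out 1 cell, with 1 Krt5 and 1 Krt10 molecule beside 36 of Col1a1, 33 of Col1a2 and 23 of Col3a1.

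**Figure D1:**
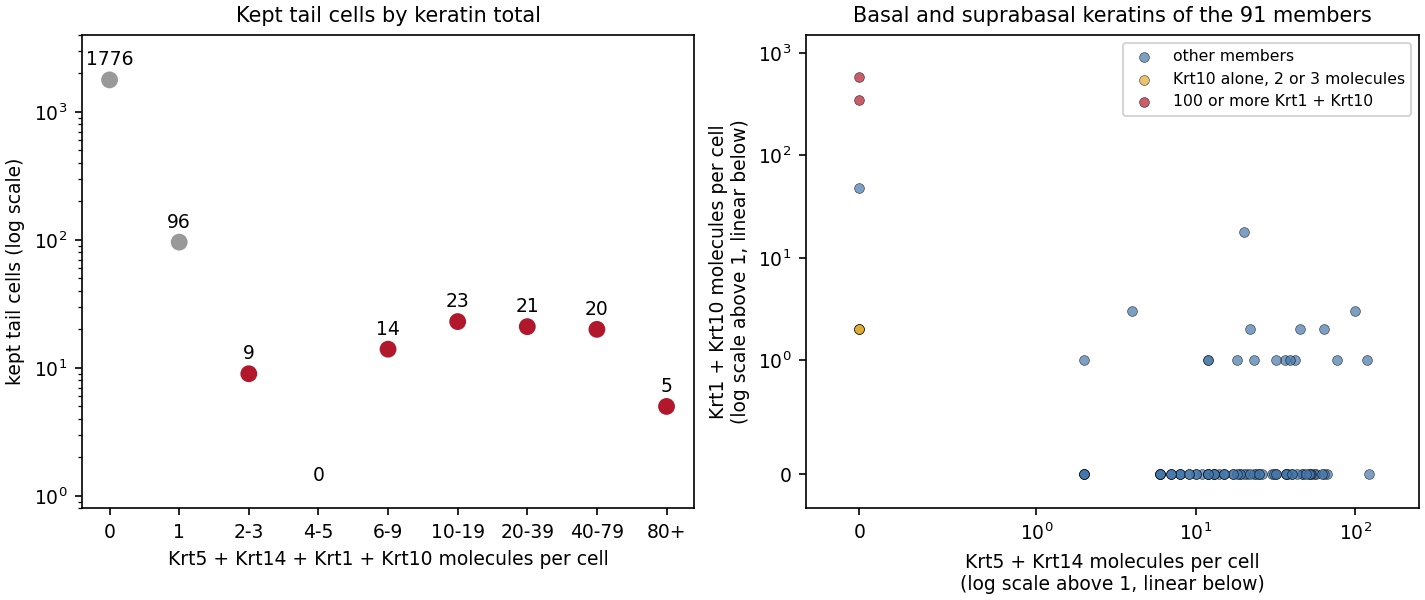
Left, kept tail cells (log scale) by their summed Krt5, Krt14, Krt1 and Krt10 molecules, with members in red, except that the 9 cells at 2 to 3 include the cell left out for collagen. Right, Krt5 and Krt14 against Krt1 and Krt10 molecules in each of the 91 members, where 68 points lie on the zero line for Krt1 and Krt10 and 2 points stand above 100.

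The label held for nearly all members but not for 3 of them. Each of these 3 had 2 keratin molecules, both Krt10. They carried 34, 29 and 18 molecules of Igfbp5, a secreted binding protein of insulin-like growth factors that was found in 1361 of the 1873 other cells. The 9 genes of the ependymoglial list, Igfbp5 among them, gave between 24 and 48 molecules per cell. The 3 cells had no molecule of the 14 desmosome and adherens junction genes. Krt10 alone was also what most non-members with 1 molecule had, and those cells had 95.8 CPM (molecules scaled to a fixed library total) of the desmosome genes in sum against 94.9 CPM in cells with none of the 4 keratins and 4599 CPM in the members. The other 5 members of 2 or 3 molecules all had Krt5 or Krt14 and gave 14 desmosome and 0 ependymoglial molecules. The 3 Krt10-only cells were kept, since the rule takes them, and several values that rest on them are given with and without them.

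Members were deeper than the other kept cells. They had a median of 2082 molecules (322 to 7338) and 1047 genes, against 1265 molecules (310 to 7106) and 824 genes in the 1873 others. Mitochondrial molecules had a median of 12.8% in members and 12.6% in the others. The 172 fibroblast-like cells, those with 10 or more collagen molecules, had a median of 1991.5 molecules. Reads per molecule were 1.25 in both members and others. The libraries shared 29 barcodes, of which 18 passed the filters in both, and none of these was a member. Scrublet called 7 kept tail cells doublets (0.356%) and no member, and these cells were kept.

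The basal pair was found in most members. Krt5 was present in 84 of 91 members, with a median of 11 and a highest value of 69 molecules per cell, and Krt14 (chromosome 11, 100203162 to 100207548) in 81, with a median of 7 and a highest value of 66. Both together were present in 80 members (87.9%, 79.4 to 93.8). The sums were 1407 Krt5 and 946 Krt14 molecules in members, beside 7 and 1 in the other kept cells. No kept brain cell had a molecule of either gene.

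The suprabasal pair was rare and lay almost wholly in a pair of cells. Krt1 (chromosome 15, 101845426 to 101850794) was present in 11 members and Krt10 in 17, and 23 members had either (25.3%, 16.7 to 35.5), or 20 of 88 (22.7%) without the Krt10-only cells. Of the 23, 17 had 1 or 2 molecules in all. The richest cell had 244 Krt1 and 340 Krt10 molecules and the next 135 and 210. Together these cells held 89.4% of the Krt1 and 91.7% of the Krt10 molecules of all members. Neither had a molecule of Krt5, Krt14, Krt17, Mki67 or Top2a, while both had Krt15, 14 and 30 molecules. The richest cell also had 89 molecules of Calm4, a calmodulin-like protein of the upper epidermis, 27 of Endou, 9 of the filaggrin gene Flg and 6 of Casp14, a caspase of cornifying cells. The next had 46 of Krtdap, a secreted protein of differentiating keratinocytes, and none of Flg or Casp14. One more cell without Krt5 and Krt14 had 23 Krt1 and 25 Krt10 molecules among only 322 in all. The study's methods remove other non-neural clusters first, then, among others, lung epithelial cells positive for Krt1 and Krt10 together. Its last clustering used only the NSC populations. Of the 91 members only 5 had a molecule of each gene. Whether members remained in the study's final set was not examined.

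Genes outside the rule were compared by their CPM ratio, members over the 1873 other kept tail cells, with exact conditional intervals. Counts under 3 were set to 3 for calling, and genes with at least 20 molecules over kept cells were used. Of 11063 genes, 256 (2.31%) were at least 4-fold higher in members and 634 (5.73%) at least 4-fold lower. Without the 3 Krt10-only cells the counts were 265 and 652 of 11061 genes. The median gene differed by a log2 ratio of -0.09. A gene needed 155 molecules in the other cells to be callable as lower, which 3324 genes had. A gene could reach the 20 molecules through the members alone, which favours higher calls in lists of keratinocyte genes. The members differ from the rest by construction, so the counts that follow describe the cells and are read beside these shares.

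**Figure D2:**
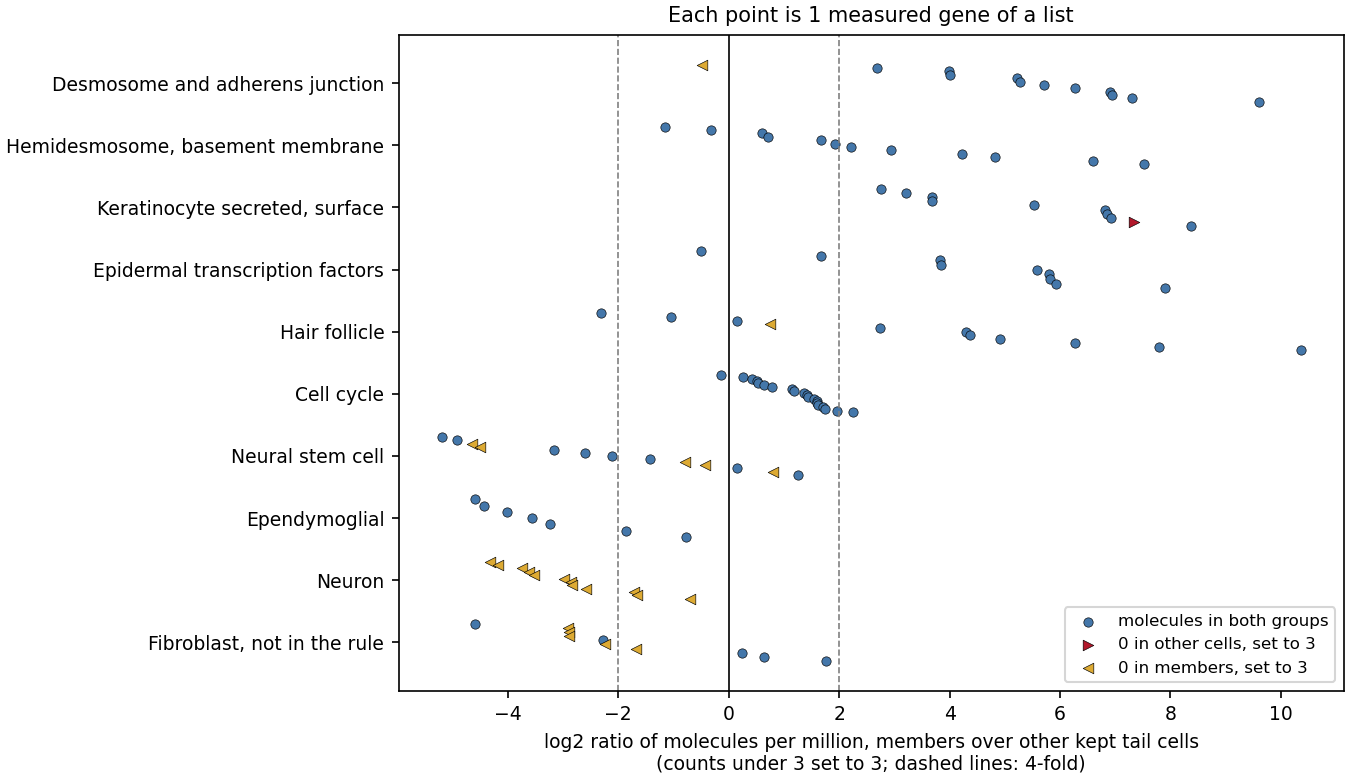
Log2 ratio of CPM, members over other kept tail cells, for each measured gene of 10 lists, with counts under 3 set to 3 and dashed lines at 4-fold. Of the desmosome and adherens junction genes 11 of 12 lie right of the upper line, and 9 of 12 neuron genes, all at 0 molecules in members, lie left of the lower one.

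Desmosome and adherens junction genes were high nearly throughout, though 0 of the 12 measured could have been called lower. Of 12 measured, 11 were at least 4-fold higher in members, with a median log2 ratio of 5.49 beside the -0.09 of all genes tested, and their sum was 4599 CPM against 94.9 CPM, a ratio of 48.5 (42.1 to 55.98). Perp (chromosome 10, 18845020 to 18857073), a membrane protein of desmosomes, had 302 molecules in 67 members and 5 molecules in the other cells, a ratio of 776 (329 to 2409). Dsp (chromosome 13, 38151294 to 38198577), the plakin that ties keratin filaments to desmosomes, was in 65 members with a ratio of 119.6 (75.2 to 200.3). The plakophilin Pkp1 (chromosome 1, 135871395 to 135919207) had a ratio of 158 (85.4 to 324). Among desmosomal cadherins, Dsc3 had 57 molecules in members, Dsg1a 18, with a ratio of 77.1 (22.5 to 409), Dsg2 12 and Dsg3 2. Dsc2 had none in members beside 54 molecules in the others. Cdh1 (E-cadherin) and Cdh3 (P-cadherin) were 15.9-fold and 38.6-fold higher. Of the 17 Cdh1 molecules in the other cells, 15 lay in 10 epithelial cells described at the end, at 495 CPM against 103 CPM in members.

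Hemidesmosome and basement membrane genes were split. Of 12 measured, 6 were at least 4-fold higher and none lower, with a median log2 ratio of 2.07. Only 4 of the 12 could have been called lower. Col17a1, a transmembrane collagen of hemidesmosomes, had 57 molecules in 38 members and 4 in the others (183-fold, 67.8 to 695), and Itgb4, its integrin partner, was 7.66-fold higher. The laminin chain genes Lamb3, Lama3 and Lama5 were 96.4-fold, 18.8-fold and 4.64-fold higher. The broadly used integrins Itga6 and Itgb1 had ratios of 1.53 (1.08 to 2.10) and 0.806 (0.589 to 1.08).

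Secreted and surface genes of keratinocytes were all high, with 10 of 10 measured at least 4-fold higher and a median log2 ratio of 6.18. Only 1 of the 10 could have been called lower. Some, such as Ly6d and Aqp3, reached 20 molecules through the members. Lgals7 (chromosome 7, 28863853 to 28866284), a galectin of stratified epithelia, had 415 molecules in 72 members and 16 in the other cells, a ratio of 333 (203 to 589). Sfn, the 14-3-3 protein stratifin, was 121-fold higher with 113 molecules. The water and glycerol channel Aqp3 had 27 molecules beside 1. Fabp5, an epidermal fatty acid binding protein, was found in 63 members but was also present elsewhere, with 544 molecules in the others and a ratio of 6.81 (5.88 to 7.87). Ly6d had 38 molecules, all in 10 members, and none in the other cells, at least 126-fold higher. The 2 members richest in Krt1 and Krt10 held 8 and 14 of these, and without them the bound was 52.3-fold.

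Of 9 epidermal transcription factors measured, 7 were at least 4-fold higher and none lower, with a median log2 ratio of 5.59. Only 1 of the 9 could have been called lower. Trp63 (chromosome 16, 25683763 to 25892102), the p53 family member needed for stratified epithelium, had 56 molecules in 34 members and 3 in the others, a ratio of 240.0 (78.0 to 1199). The AP-2 genes Tfap2a, Tfap2b and Tfap2c were 61.1-fold, 48.2-fold and 14.4-fold higher. Barx2 was 55.7-fold higher. Klf5 was 14.2-fold higher. The barrier factors Klf4 and Gata3 did not pass, with ratios of 0.705 (0.557 to 0.881) and 3.17 (2.12 to 4.61). Klf4 is also an immediate early gene, and it had 1495 molecules in the other cells.

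Genes were also ranked by the interval bound nearer 1, and of the 15 at the head, BC100530, Stfa3, Trim29, Serpinb5, Klk10, Kremen2 and Endou belong to no list used here. BC100530 (chromosome 16, 36359382 to 36367748, minus strand) had 451 molecules in 57 members and 0 in all 1873 other cells, at least 1565-fold higher. Stfa3 (chromosome 16, 36450537 to 36455392, minus strand) had 503 molecules in 51 members and 7 in 3 other cells, a ratio of 924 (445 to 2309). Both belong to the stefin A family of cysteine protease inhibitors, lie 82.8 kb apart, and have close paralogs in the same cluster, so that the split of reads between them is uncertain. Serpinb5 (maspin) and Trim29 had 53 and 63 molecules in members and none elsewhere, at least 178-fold and 213-fold higher. The kallikrein Klk10 and the Wnt pathway receptor Kremen2 likewise had 30 and 28 molecules in members and 0 in the others.

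Suprabasal and hair follicle genes were present beside the basal pair. Only 3 of 15 genes of the suprabasal and cornified list reached 20 molecules, and all 3 were higher. Of these 3, 0 could have been called lower. Krtdap was in 35 members (135-fold, 86.3 to 223), Dmkn in 30 (17.6-fold) and Calm4 (chromosome 13, 3837757 to 3838673) in 21, of which 1 cell held 89 of 147 molecules. Of 11 hair follicle genes measured, 7 were at least 4-fold higher. Krt17 (chromosome 11, 100256217 to 100261029) had 307 molecules in 65 members beside 3 in the others, a ratio of 1316 (446 to 6414), and Krt15 (chromosome 11, 100131758 to 100135928) 361 in 61 members beside 21, of which 1 cell held 19. Krt14, Krt16 and Krt17 are close paralogs, so low counts of one beside another are uncertain. Lhx2 and Lef1, transcription factors of hair placodes, were 20.6-fold (12.2 to 35.4) and 19.6-fold (10.95 to 35.7) higher, with 40 and 32 molecules in 16 and 26 members. Edar, the placode receptor of the ligand Eda, had 18 molecules in 14 members beside 2 in the others, a ratio of 115.7 (27.7 to 1028). Sox9 did not pass, with a ratio of 1.104 (0.739 to 1.59), and Hoxc13 was lower, with 4 molecules beside 255.

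Of 23 keratin genes outside the rule with a molecule in kept tail cells, 12 had one in members. At least 20 molecules in all were reached by 6, of which Krt8, Krt25 and Krt19 had 0, 0 and 1 in members. Krt16 had 8 molecules in members and 0 in the others, Krt79 6 and 0, and Krt80 17 and 7. Of 5 measured genes of epithelial identity, 4 were at least 4-fold higher, among them the adhesion protein gene Epcam (7.95-fold, 5.02 to 12.4) and the splicing factor gene Esrp1 (137-fold, 42.9 to 699.8). Of the 55 Epcam molecules in the other cells, 50 lay in 10 epithelial cells described at the end, at 1651 CPM against 167 CPM in members. Of 4 sebaceous genes none was higher and Mgst1 was lower, with 4 molecules beside 248. Krt18, a simple epithelial keratin like Krt8, had none in any member. Krt25, a keratin of the inner root sheath, had 23 molecules in the other cells and 0 in members.

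Among 12 ligand, receptor and pathway genes of epidermal signalling, 3 were at least 4-fold higher, 1 was lower and 8 passed in neither direction. Edar was higher as given above, the Notch ligand Jag2 was 14.7-fold (8.57 to 25.3) and the ligand Wnt3 9.77-fold (5.09 to 18.5) higher. Fgfr2, whose epithelial form receives signals from the dermis, was in 46 members and had a ratio of 3.70 (2.87 to 4.73). The receptor Notch1 had a ratio of 1.14 (0.782 to 1.61). Met, the receptor of hepatocyte growth factor, was lower with 3 molecules beside 181.

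The reporter gene was almost absent. Sox1 (chromosome 8, 12395295 to 12400126, inside the non-coding gene Sox1ot on the same strand) had 1 molecule in 1 of 91 members and 235 molecules in 191 of the 1873 others, or 4.92 CPM (0.125 to 27.4) against 89.9 CPM (78.8 to 102). With each cell thinned to 400 molecules, 1 of 90 members (1.11%, 0.0281 to 6.04) had a Sox1 molecule. Thinning left out 1 member and 18 others. The share was 68 of 1855 (3.67%, 2.86 to 4.62) in the other kept cells, and the thinned shares alone do not separate the groups. Over all molecules Sox1 was lower in members, with a ratio of 0.0547 (0.00138 to 0.308). The unthinned shares were 1.099% and 10.2%. Fibroblast-like cells, which should lack Sox1, gave 0 of 172 thinned cells, with an exact upper bound of 2.12%, and 1 of 172 (0.581%) unthinned. With 1 molecule in 1 member, these shares cannot tell whether members differ from this background. Sox2 (chromosome 3, 34650405 to 34652461) had 0 molecules in members and 968 in the others, at least 20.4-fold lower. In thinned cells it was in 0 of 90 members, with an exact upper bound of 4.02%, and in 13.8% (12.3 to 15.5) of the others, with unthinned shares of 0 and 34.3%.

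**Figure D3:**
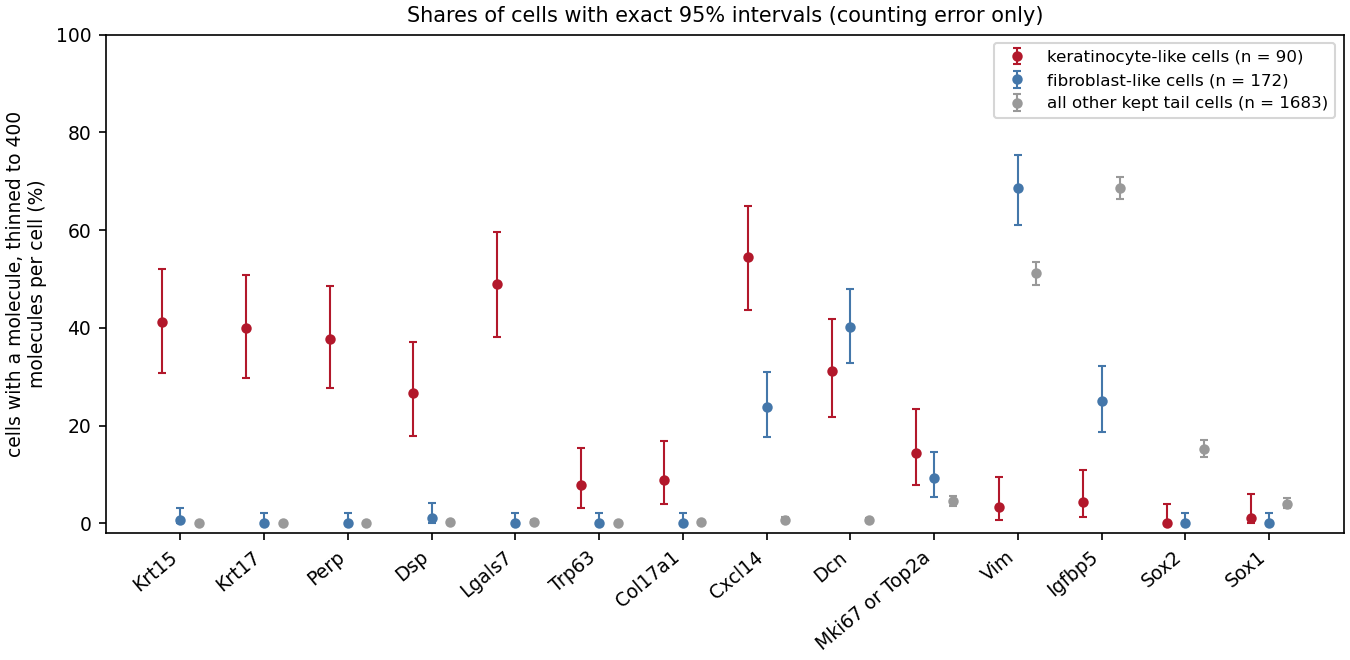
Share of cells (%) with a molecule of each gene after thinning every cell to 400 molecules, with exact 95% intervals, in 90 keratinocyte-like cells, 172 fibroblast-like cells and 1683 other kept tail cells. The genes from Krt15 to Col17a1 were in 7.78 to 48.9% of members and in at most 1.16% of the cells of either other group, Cxcl14 and Dcn were also present in fibroblast-like cells, and Vim was found in 3.33% of members.

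Markers of the other cells in the sort were low as groups. Of 13 NSC genes, 7 were at least 4-fold lower. The sum over the 13 was 575 CPM in members, or 493 CPM without the 3 Krt10-only cells, against 5283 CPM. Vim, the intermediate filament of glia and mesenchyme, had 17 molecules in members and 6648 in the others, a ratio of 0.0329 (0.0191 to 0.0527), and without the 3 Krt10-only cells it had 4 molecules in 4 of 88 members. Pax6 had 0 beside 879 and Fabp7 4 beside 1885. Slc1a3 and Sox9, which skin epithelium also uses, had ratios of 0.370 and 1.104. The 12 neuron genes, among them Stmn2, Tubb3, Elavl3, Dcx, Gad1 and Pkd2l1, had no molecule in any member and 4301 in the other cells. Of 7 measured ependymoglial genes 5 were lower. Their 138 molecules in members, summed over the list, included 111 in the 3 Krt10-only cells, and the per-cell sum in members ranged from 0 to 34636 CPM, with 73 members at 0. Without those 3 cells it was 27 molecules in 15 of 88 members, or 136 CPM, against 13608 CPM in the others.

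Fibroblast genes were low or even. Of 10 that the rule did not use, 6 were at least 4-fold lower and none higher. Lum, Pdgfra, Lox, Twist2 and Mfap5 had 0 molecules in members, and Col6a1 had 1 beside 937. The per-cell sum over the list ranged from 0 to 8636 CPM in members, with 21 members at 0. Dcn (chromosome 10, 97479609 to 97518143), which codes for the small proteoglycan decorin, stood apart. It had 258 molecules in 57 of 91 members, with a median of 1 and a highest value of 17 per cell, and 1269 CPM against 376 CPM in all other kept cells, a ratio of 3.37 (2.93 to 3.87). In fibroblast-like cells it had 939 molecules in 119 of 172 cells, or 2372 CPM, and in the remaining 1701 kept cells 19.8 CPM. Lum and Pdgfra, which the rule did not use, had 239 and 81 molecules in fibroblast-like cells and 0 in members. In thinned cells Dcn was in 31.1% (21.8 to 41.7) of members, 40.1% (32.7 to 47.9) of fibroblast-like cells and 0.594% (0.285 to 1.09) of the rest, with unthinned shares of 62.6%, 69.2% and 1.999%. The part of fibroblast RNA in the Dcn counts was not tested. Postn and Fbln1 also had molecules in members, 44 and 22, with ratios of 1.18 and 1.56.

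Other lineages left few molecules. Members had 0 molecules of the Schwann cell gene Sox10, 0 of the melanoblast genes Dct and Kit, 0 of Kdr and Cdh5, genes of endothelial cells, and 0 of the myeloid gene Lyz2. The others had only 36, 32, 74, 60, 20 and 39 molecules of these genes. The intervals of Sox10, Dct, Cdh5 and Lyz2 reached 1.39, 1.57, 2.60 and 1.28, so these zeros do not show lower levels. The Schwann cell, melanocyte, endothelial and immune lists gave 4, 1, 1 and 1 molecules in members. The others had 187, 128, 171 and 84, and the ratio intervals ended at 0.716, 0.570, 0.425 and 0.876. Hba-a1, a haemoglobin gene, had 1 molecule beside 1590 in the others. Of the genes with the smallest ratios, Dlk1, Col6a2, Meg3 and Gap43 had 0 molecules in members and 1745, 1386, 1330 and 980 in the others. Ntn1, which codes for netrin, had 1 beside 1831, Rtn1 2 beside 1906, Sparcl1 7 beside 3700 and Nnat 19 beside 7648. The Nnat ratio was 0.0319, and 0.00516 without the 3 Krt10-only cells.

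Genes of body position and of handling stress were compared because the tail is the hind end of the body and trypsin was used. Of 14 caudal Hox genes measured, none was higher and 3 were lower, and the sum was 369 CPM against 961 CPM, a ratio of 0.384 (0.301 to 0.483). Hoxb13 had 0 molecules in members and 814 in the others, at least 17.1-fold lower, and Hoxa13 had 0 beside 152. Hoxa9 and Hoxd11 had ratios of 0.998 (0.630 to 1.51) and 0.907 (0.460 to 1.63). The 10 dissociation genes summed to 6148 CPM in members and 9483 CPM in the others, a ratio of 0.648 (0.612 to 0.686). Fosb was lower (0.243, 0.174 to 0.329) and Hspa1a higher (4.47, 1.73 to 10.4), with 8 molecules.

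Cell cycle genes were higher in sum, but few stood apart singly. The 20 genes summed to 2779 CPM in members and 1179 CPM in the others, a ratio of 2.36 (2.15 to 2.58), and their median log2 ratio was 1.39, but only Aurkb passed 4-fold, with 14 molecules. Cenpf and Aurka had ratios of 0.907 (0.520 to 1.48) and 0.952 (0.110 to 3.79). Mki67, a protein of dividing cells, had 49 molecules in 29 members (ratio 2.704, 1.94 to 3.69) and the topoisomerase Top2a 68 in 21 (2.27, 1.72 to 2.94). In thinned cells 13 of 90 members (14.4%, 7.92 to 23.4) had a molecule of either, against 16 of 172 fibroblast-like cells (9.30%, 5.41 to 14.7) and 76 of 1683 of the rest (4.52%, 3.57 to 5.62). The unthinned shares were 38.5%, 20.3% and 10.6%, and members were deeper. Among members the unthinned share was 8 of 23 with Krt1 or Krt10 (34.8%) and 27 of 68 without (39.7%). Of the 23, 17 had only 1 or 2 molecules of this pair, and the 8 include a Krt10-only cell. Among the 6 with 3 or more, either gene was found only in a cell with 1 Mki67 molecule beside 50 of Krt5 and 49 of Krt14. The 2 shares therefore do not compare suprabasal with basal cells.

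Members with Krt1 or Krt10 were set against the 68 without. By interval bound, the 5 leading genes outside the rule toward the first were Endou, Igfbp5, Calm4, Ly6d and Krtdap. Endou had 36 molecules beside 2 (46.2-fold, 11.9 to 396), Calm4 110 beside 37 (7.63-fold, 5.21 to 11.4) and Krtdap 132 beside 89 (3.81-fold, 2.89 to 5.04). Igfbp5 came from the 3 Krt10-only cells, which hold 81 of its 87 molecules. Toward the second group the 5 were Hmga2, Txnip, Ucp2, Cks1b and Lhx2, with Hmga2, a chromatin protein of growing embryonic tissue, at 1 molecule beside 35. Without the 2 richest cells, Endou, Calm4, Ly6d and Krtdap were no longer among the 10 leading genes, so their place rests on those cells. Over the whole groups, genes of basal cells were close to even, with ratios of 0.916 (0.472 to 1.69) for Col17a1 and 0.939 (0.483 to 1.73) for Trp63. Of the 23 members with Krt1 or Krt10, 17 also had Krt5 or Krt14. The 6 members with 3 or more molecules of Krt1 and Krt10 each had 0 of Col17a1 and at most 2 of Trp63.

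A sharper division among members ran along the stefins, and this split was chosen after the values had been seen. Stfa3 was found in 51 members and BC100530 in 57, and 47 had both. Spearman's rho between their levels per cell was 0.82 over 91 members, a description over cells of 1 library that share each cell's depth. Of the members, 61 had either gene. The 27 with neither, the Krt10-only cells aside, were of similar depth, with a median of 1877 molecules against 2142, but had a median of 9 molecules of the 4 keratins against 37.

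**Figure D4:**
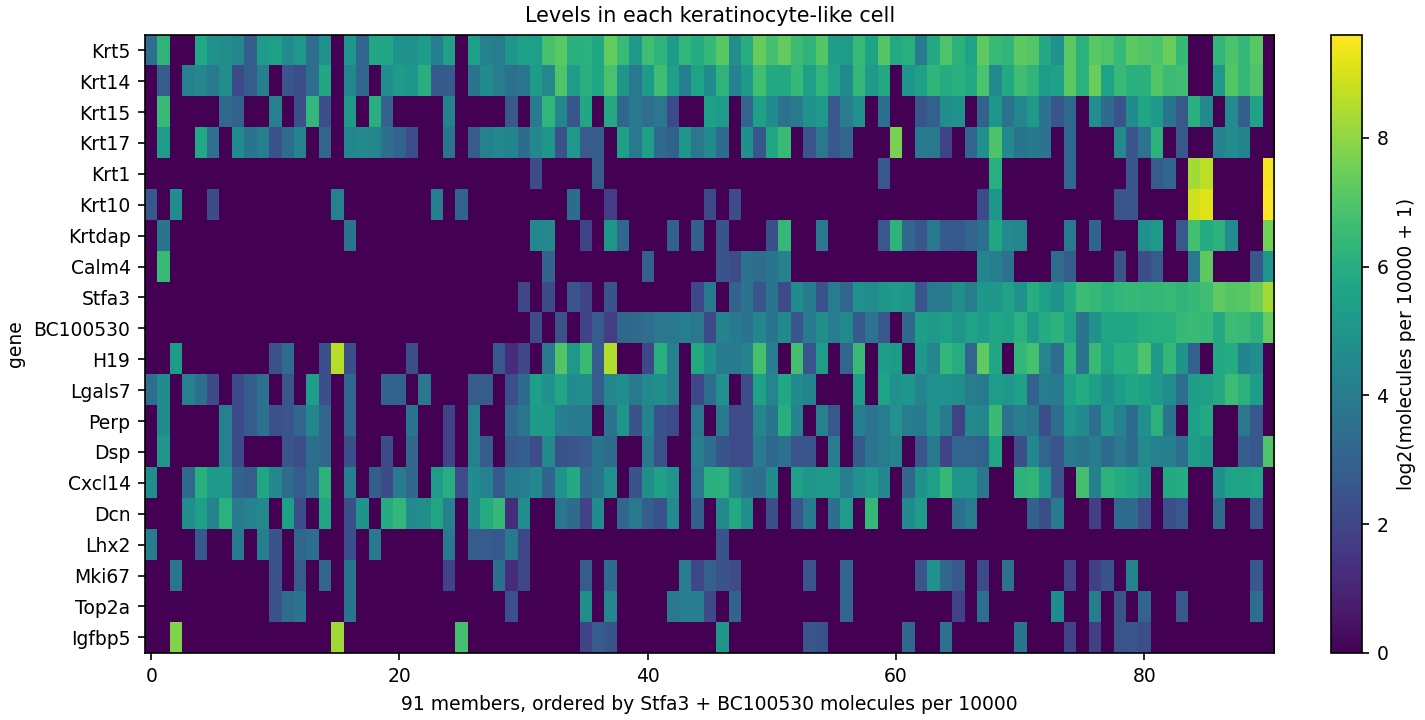
Level of 20 genes, as log2(molecules per 10000 + 1), in each of the 91 members, ordered from left to right by their Stfa3 and BC100530 molecules per 10000. The 30 cells at the left have neither stefin, and among them lie most cells with Lhx2 and the 3 cells with the most Igfbp5.

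Several single genes were higher in the 61 stefin members. Krtdap had 216 molecules in 33 of 61 beside 5 in 2 of 27 (18.8-fold, 7.93 to 58.5), Lgals7 383 beside 32 (5.21-fold, 3.63 to 7.72) and Perp 267 beside 35 (3.32-fold, 2.33 to 4.87). The other desmosomal gene looked at, Dsp, was 2.56-fold (1.70 to 4.01) higher. Krt14 was 4.29-fold, Krt5 2.79-fold and Krt15 2.06-fold higher in them, and all 424 Krt1 molecules were theirs. The 2 cells richest in Krt1 and Krt10, both stefin members, held 89.4% of these Krt1 molecules. They also held 36 and 46 of the Krtdap molecules, and this split was not recomputed without them. H19, an imprinted non-coding RNA of fetal tissues, had 720 molecules in 50 of 61 cells beside 8 in 7 of 27, a ratio of 39.1 (19.8 to 91.03). Krt17 (interval of the ratio 0.854 to 1.43), Trp63 (ratio 1.305, 0.699 to 2.59) and Cxcl14, a chemokine of skin found in 75 members in all (1.31, 1.07 to 1.61), were close to even.

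Single genes of hair placodes had ratios in either direction, and no list was counted in this split. Lhx2 (chromosome 2, 38339281 to 38369733), a transcription factor of hair placodes, was found in 14 of 27 stefin-negative members and in 2 of 61 stefin members, with 38 and 2 molecules. Shh, the placode ligand, had 6 molecules in 6 of the 27 and 0 in the 61. Edar had 10 molecules in the stefin-negative and 8 in the stefin members, a stefin over stefin-negative ratio of 0.348 (0.119 to 0.979). Lef1 (0.830, 0.383 to 1.91) and Wnt10b (0.783, 0.343 to 1.898) had intervals of the same ratio that span 1, and Sostdc1, a secreted inhibitor found in placodes, was higher in the stefin members, 54 beside 9 molecules (2.61, 1.28 to 6.01). Dcn was also higher in the stefin-negative cells, 145 molecules in 22 of 27 beside 113 in 35 of 61, a stefin over stefin-negative ratio of 0.339 (0.263 to 0.437). Tgfb2, Dusp6, Basp1 and Fn1 had ratios between 0.109 and 0.282. Molecules of Mki67 or Top2a were found in 26 of 61 and 8 of 27 cells.

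When kept tail cells were clustered without the 7 genes of the rule and without cell cycle genes, the members stayed together. Of 10 clusters, 1 held 88 of 91 members (96.7%, 90.7 to 99.3), and the members outside it were the 3 Krt10-only cells, 1 in a cluster led by Deup1 and Ccno, genes of multiciliated cells, and 2 in the largest cluster, with Oxtr and Igfbp5 at its head. Among the 15 nearest neighbours of a member the median share of members was 100%, where members are 4.63% of kept cells. These clusters were made from the same cells that the rule chose on, so this is a description. The cluster also held 10 cells that are not members.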

How the data were processed

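Single cells of 1 tail and 1 brain library were analysed. The deposited tables hold molecule counts per cell barcode and gene, made by the authors with the BD Rhapsody WTA Analysis Pipeline, version 1.10.1 per the file headers, on GRCm38 with GENCODE annotation. Counts after the pipeline's identifier error correction were used as deposited. The tail library held 2972637 molecules in 2469 barcodes and the brain library 7462281 in 12111. Following the study's methods, a cell was kept if its gene number lay between 200 and 4000 and its mitochondrial share below 40%, and 505 tail barcodes were removed. The members and gene lists were chosen with earlier results of these data known.

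Molecules were summed over cells and scaled to CPM. With 1 library per group no test was possible, and ratios carry exact conditional binomial intervals and shares Clopper-Pearson intervals, both at 95%. Genes of the rule and mitochondrial genes were left out of counts of genes. Calls against 0 molecules used a floor of 3 counts per group, and a fold against 0 is given as the bound of its interval. Shares were compared after thinning to 400 molecules per cell. Named genes were, per list, the counts and up to 4 genes by ratio or molecules, the 15 largest and 10 smallest ratios, and 5 genes in each direction of the split by Krt1 and Krt10. Any other gene, and the split by stefins, was chosen after its values were seen. Clustering used scanpy 1.11.5 (15 neighbours, Leiden resolution 0.3, 1983 of 2000 variable genes left after removals). Scaling alternatives used edgeR 4.0.16. Scripts were tested on simulated data. Reads of Krt10, Lgals7 and BC100530 overlap antisense genes, which had 9, 1 and 1 molecules in kept tail cells.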

Additional observations from a re-analysis of the deposited data

Results flagged for a closer look

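Suprabasal keratins were counted in the brain library, which the comparisons above do not use. The kept brain cells held 13 molecules of Krt1, 1 each in 13 cells, and 140 of Krt10 in 138 of 7988 cells (1.73%), with at most 2 per cell. Krt10 stood at 21.8 CPM there and at 32.1 CPM in the tail cells that are not members, while Krt5 and Krt14 were at 0 in the brain cells. The 2 brain cells that met the rule had Krt10 alone.

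Of the tail barcodes that failed the filters, 8 had 2 or more molecules of the 4 keratins. All 8 had Krt5 or Krt14, and all had a mitochondrial share of at least 40%, from 40.5 to 92.98% with a median of 42.9%. Their keratin molecules ranged from 2 to 23 with a median of 4.5.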

How the results depend on the processing

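Of 67 alternative values of the main results, 54 stayed within the spread or range set for them and 13 moved. These are shares and counts, which have no direction to reverse. Of 324 alternative values of 27 named genes, 294 stayed, 30 moved and 0 reversed. Most of these genes were picked for extreme ratios, so a reversal was unlikely from the start. With a minimum of 10 keratin molecules, members made up 3.51% of kept cells and 100% of them lay in 1 cluster, as did 100% with a minimum of 5. Genes at least 4-fold higher numbered 122 with a minimum of 50 molecules per gene, 5275 with a minimum of 1, where the floor of 3 counts alone gives the ratio, and 115 where the whole interval had to lie beyond 4-fold, which left 240 lower genes. Elsewhere higher genes ranged from 239 to 321 and lower genes from 469 to 652. Higher genes were 28.8% of those called, 40.6% by the mean over cells, 16.1% with 50 molecules and 89.3% with 1. Scaling by the median of ratios moved the median log2 ratio from -0.09 to 0.03. The thinned share with Sox1 was 0 with mitochondrial molecules under 20%, before identifier correction, without called doublets and at 800 molecules. In the main setting that share rests on 1 molecule in 1 member, which a random draw can keep or lose. The cause of the zeros was not tested. The share with Mki67 or Top2a was 26.1% at 800 molecules and 38.5% without thinning, where more molecules per cell are counted. Leaving out the Krt10-only cells or the 2 cells richest in Krt1 and Krt10 was chosen after seeing the data. No paired analysis was possible because each group has 1 library. Depth limits statements on Sox1 and on genes with under 155 molecules in the other cells.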

Other observations

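A second, smaller set of epithelial cells lay beside the members. Of the 98 cells of the cluster that held 88 members, 10 were not members, and these were chosen for description after their values were seen. They had a median of 2765 molecules and, of the 4 keratins of the rule, a single Krt5 molecule. All 51 Krt8 and all 15 Krt18 molecules of kept tail cells, keratins of simple epithelia, lay in these cells, 7 of 10 having each gene. Of the Krt19 molecules 47 were theirs and 1 was in a member. Epcam, an adhesion protein of epithelia, had 50 molecules in 8 of the 10, the membrane protein gene Tspan1 36 in 8 and the epithelial transcription factor Elf3 20 in 8. Spink1, a trypsin inhibitor, had 159 molecules in 2 of them, of which 119 in 1 cell, and Lypd8, a gene of intestinal epithelium, 75 with 74 in 1 cell. Krt4 had 16 molecules, all in 1 cell.

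Sox1 was present in 4 of these 10 cells with 7 molecules, or 231 CPM, beside 1 molecule in the 91 members. With 10 cells of 1 library this is a description. Dsp was in 8 of the 10, as in 65 of 91 members, while Perp had 2 molecules, Stfa3 0 and Cxcl14 0 in them.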
